A study of Mus musculus with 21 samples.

Results

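Pou5f1, Nanog, Sox2 and Klf4 encode transcription factors at the centre of the pluripotency network of mouse embryonic stem (ES) cells, and their loci were examined here for Fbxl19, Rnf20 and monoubiquitinated histone H2B (H2Bub1). Each locus was taken as a fixed window on the mm9 build. These were 35633000 to 35658000 on chromosome 17 for Pou5f1, 122647000 to 122675000 on chromosome 6 for Nanog, 34538000 to 34562000 on chromosome 3 for Sox2 and 55530000 to 55556000 on chromosome 4 for Klf4. Every entry of 8 deposited lists that overlapped a window by at least 1 bp was a member, which gave 51 of the 42669 peaks and domains listed. The windows were 24 to 28 kb long and were set beside 105514 tiles of 25 kb that span chromosomes 1 to 19 and X.

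The study used chromatin immunoprecipitation and sequencing in J1, a mouse ES line grown with leukemia inhibitory factor, in 21 samples of 12 groups. Fbxl19 carried a flag-biotin tag and was pulled down with streptavidin beads in 2 samples of a clone that overexpressed it more than 5-fold (OE-high) and in 2 samples of a clone with less than the endogenous level (OE-low). Rnf20 was pulled down with the same beads in 1 sample, and the labels give cells containing BirA, a biotin ligase, for Rnf20 and OE-low but not for OE-high. H2Bub1 was precipitated with an antibody from ES cells (3 samples), ES cells with Fbxl19 knocked down (2), OE-high ES cells (3), cells at day 4 of differentiation (2) and day 4 cells with Fbxl19 knocked down (2). The remaining 4 samples were inputs and were not analysed here. OE-high and OE-low each stand for a single clone, the sources used here give neither the knockdown reagent nor the differentiation protocol, and Fbxl19 binding in knockdown or differentiated cells was not analysed here. The data hold no RNA, so the state of the differentiated cells, which the labels also give as embryonic stem cells, was not checked against marker genes.

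Oct4 (the product of Pou5f1) and Sox2 bind DNA together at many enhancers of ES cells, Nanog stabilises the undifferentiated state, and Klf4 is a zinc finger factor that acts with them and is one of the reprogramming factors. Fbxl19 combines an F-box with a zinc finger of the CXXC type, which recognises CpG dinucleotides that lack methylation. Rnf20 is the E3 ligase that places ubiquitin on histone H2B, and H2Bub1 typically lies over the body of transcribed genes. The title of the series names recruitment of Rnf20 to CpG islands by Fbxl19 as its subject, so the CpG content of the 4 promoters is shown first.

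Klf4 and Sox2 had CpG-rich promoters, while Pou5f1 and Nanog lay nearer the median of all promoters. The sequences are the 250 bases before the most upstream start in the RefSeq promoter table of GRCm38.p6, read 5′ to 3′ on the strand of the gene, and capitals mark CpG, the letters that a CXXC domain recognises. Klf4 is transcribed from the minus strand and the other 3 genes from the plus strand.
Pou5f1: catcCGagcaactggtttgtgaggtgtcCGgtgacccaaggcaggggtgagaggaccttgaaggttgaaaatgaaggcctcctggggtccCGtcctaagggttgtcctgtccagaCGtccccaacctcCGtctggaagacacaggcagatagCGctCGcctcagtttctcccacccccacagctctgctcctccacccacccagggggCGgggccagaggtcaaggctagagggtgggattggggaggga
Nanog: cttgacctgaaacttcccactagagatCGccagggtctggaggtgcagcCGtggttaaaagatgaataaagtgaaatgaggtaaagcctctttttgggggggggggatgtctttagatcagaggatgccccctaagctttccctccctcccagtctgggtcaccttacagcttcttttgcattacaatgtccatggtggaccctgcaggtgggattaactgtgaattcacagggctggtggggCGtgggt
Sox2: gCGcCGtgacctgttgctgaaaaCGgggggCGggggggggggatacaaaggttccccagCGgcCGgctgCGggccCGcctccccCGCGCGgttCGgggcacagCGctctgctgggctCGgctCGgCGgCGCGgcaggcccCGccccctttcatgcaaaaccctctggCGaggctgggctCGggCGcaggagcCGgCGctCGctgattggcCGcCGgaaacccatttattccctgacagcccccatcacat
Klf4: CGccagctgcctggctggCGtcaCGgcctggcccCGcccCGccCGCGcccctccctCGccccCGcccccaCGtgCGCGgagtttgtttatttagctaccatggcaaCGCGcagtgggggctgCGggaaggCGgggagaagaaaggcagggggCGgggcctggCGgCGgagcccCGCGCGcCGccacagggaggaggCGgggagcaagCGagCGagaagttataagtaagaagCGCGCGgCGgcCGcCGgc
Klf4 had 32 CpG in this stretch and Sox2 had 27, counts that 4.58% and 8.56% of the 32851 promoters of the table reached. Pou5f1 had 8 CpG and Nanog 3, reached by 43.0% and 71.0% of promoters, around a median of 6. The ratio of observed to expected CpG was 0.941 for Klf4, 0.833 for Sox2, 0.334 for Pou5f1 and 0.182 for Nanog. The motif counted was CG, which reads the same on both strands, and 92.1% of all promoters held at least 1. The build of this table differs from that of the peak lists, so peaks were not placed on these bases or on exons, and no mm9 annotation was used here.

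**Figure D1:**
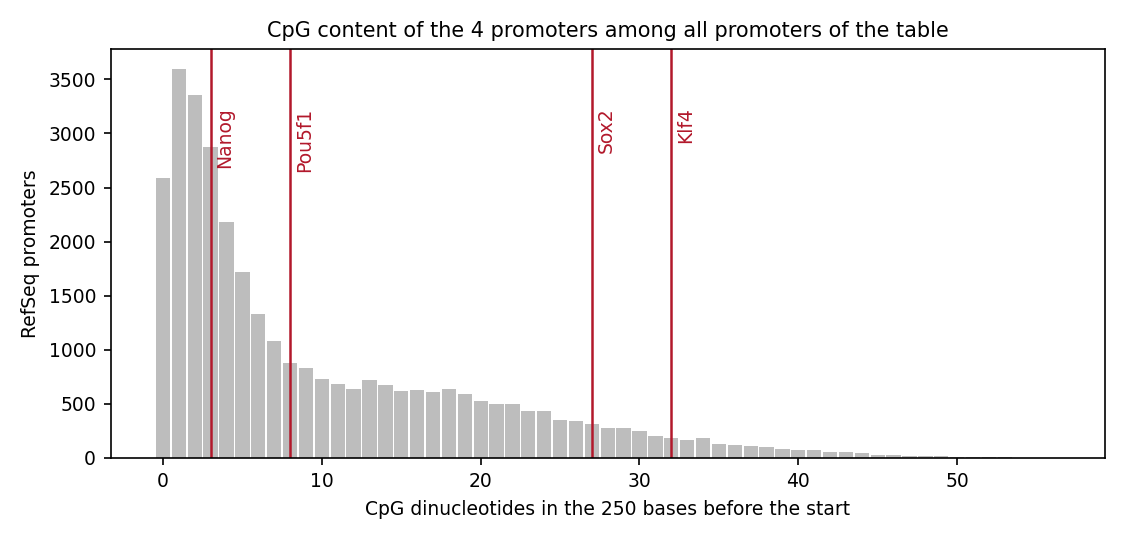
Number of CpG dinucleotides in the 250 bases before the start (x axis) against the number of RefSeq promoters with that count (y axis), with red lines at the 4 members. Nanog (3) and Pou5f1 (8) lie on either side of the median of 6, Sox2 (27) and Klf4 (32) in the upper tail.

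All 4 loci held Fbxl19 in the OE-high clone, Rnf20, and an H2Bub1 domain in undifferentiated cells, while 2 of them had no domain at day 4 and 3 had none in the day 4 knockdown. OE-high Fbxl19 peaks numbered 18 and Rnf20 peaks 17, in 4 of 4 windows each, against 9.97% and 6.16% of all tiles with such a peak. H2Bub1 domains lay in 4 of 4 windows in the ES, knockdown and OE-high lists, against 4.65%, 3.10% and 15.2% of tiles. The day 4 list had a domain in 2 of 4 windows (10.3% of tiles), the day 4 knockdown list in 1 of 4 (1.58% of tiles), and the OE-low Fbxl19 list a peak in 1 of 4 (1.94% of tiles). Tiles also cover sequence with few genes, so tiles with peaks are the closer comparison. Among the 242 tiles with at least 2 OE-high Fbxl19 and 3 Rnf20 peaks, the least that any of the windows held, 59.5% had an ES domain, 46.3% a knockdown domain, 86.0% an OE-high domain, 66.5% a day 4 domain and 28.9% a day 4 knockdown domain. Each group was represented by 1 list, so presence and length of a domain have no replicate check and no test was possible.

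**Figure D2:**
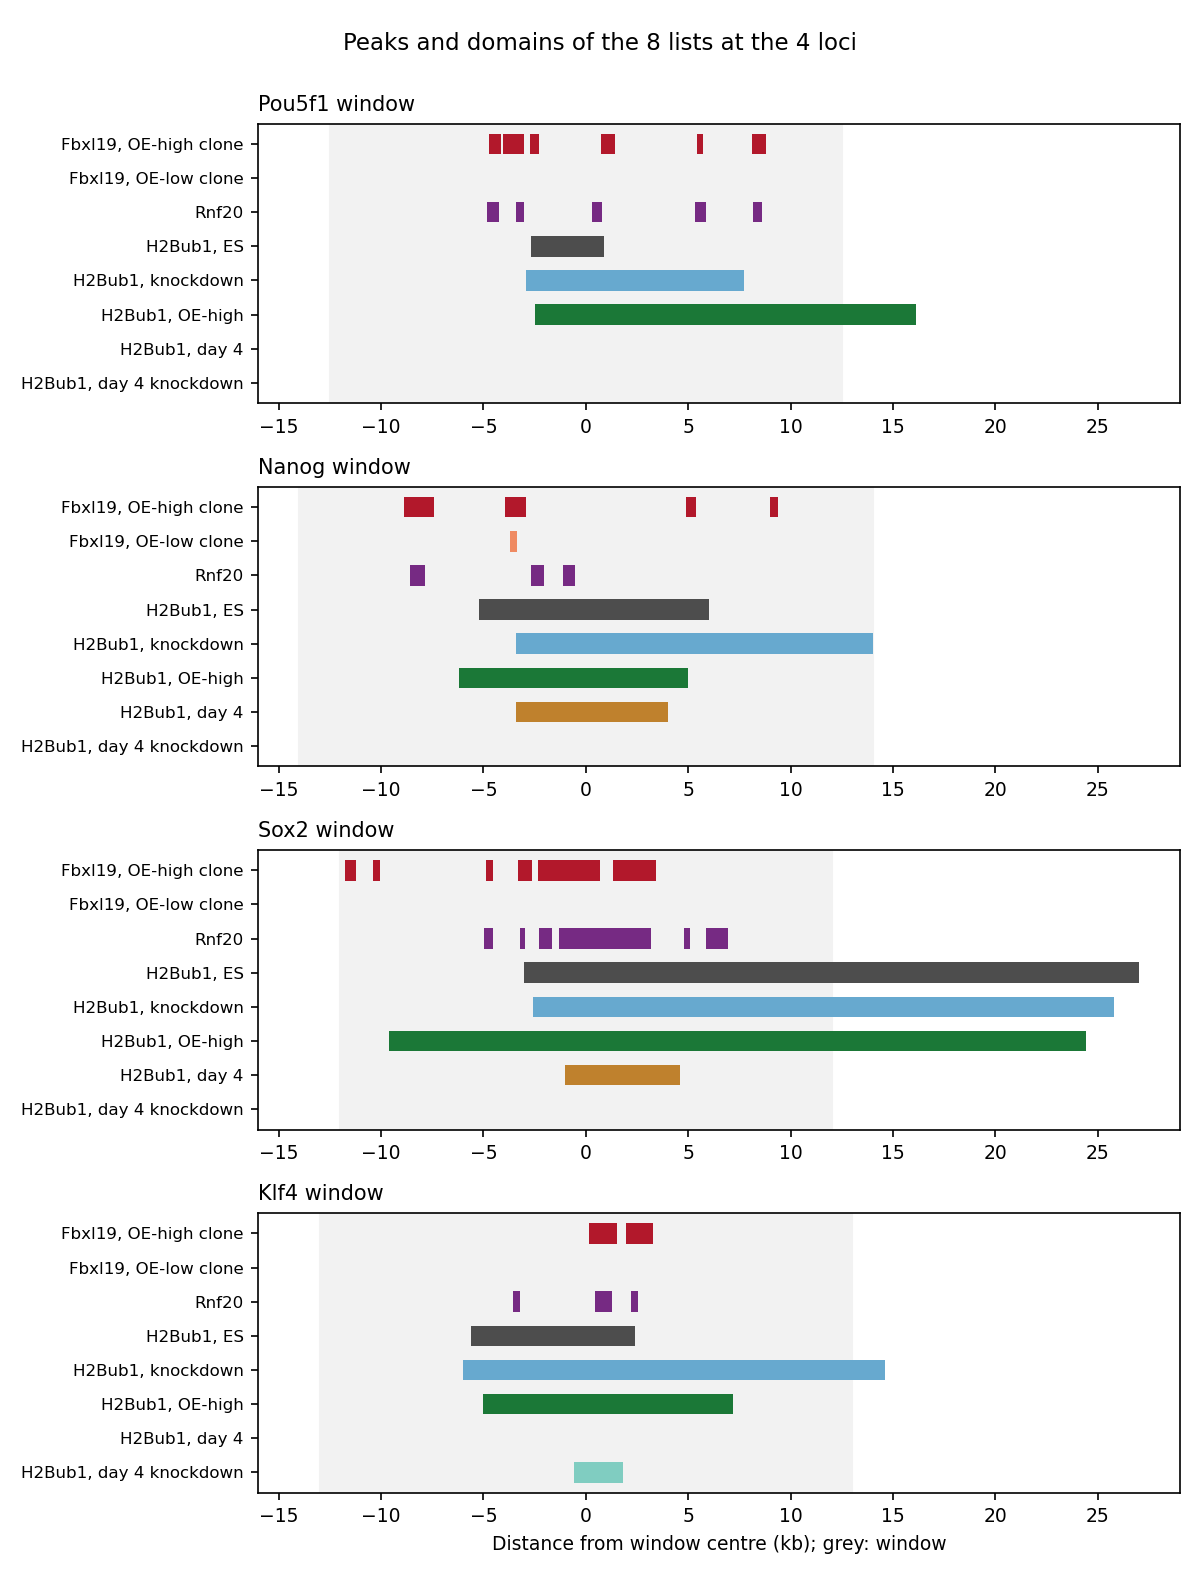
Position of each peak or domain (bars) of the 8 lists in the windows of Pou5f1, Nanog, Sox2 and Klf4, as distance from the window centre in kb, with the window in grey. Every locus has OE-high Fbxl19 and Rnf20 peaks and domains in the ES, knockdown and OE-high lists, while day 4 domains appear at Nanog and Sox2 and a day 4 knockdown domain at Klf4.

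At Pou5f1, Fbxl19 and Rnf20 formed a string of mostly paired peaks that overlapped and flanked a short H2Bub1 domain. The 6 OE-high Fbxl19 peaks and 5 Rnf20 peaks compare with at least 6 and at least 5 such peaks in 0.0256% and 0.107% of tiles. By the first deposited score, used for ranks throughout, Fbxl19 scored highest at 35640775 to 35641344, with 20.8, above 97.4% of its list, and there Rnf20 had its own highest score at the locus (137, above 88.7% of its list). The Fbxl19 peaks at 35641479 to 35642460 (score 14.3) and 35642768 to 35643196 (12.3) followed, and the last 3 scored 6.58 to 8.76, above no more than 21.9% of the list. Every Rnf20 peak overlapped an Fbxl19 peak, and 5 of the 6 Fbxl19 peaks overlapped Rnf20, the exception being 35642768 to 35643196. No OE-low peak lay within 320 kb of the window. In ES cells the H2Bub1 domain ran from 35642800 to 35646399, a length of 3600 bp beside 4746 bp for the gene in the RefSeq table. Its score of 16.6 stood above 91.9% of ES domains, while 25.5% of ES domains were shorter.

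Pou5f1 domains kept nearly the same left end and differed at the right end. In the knockdown the domain ran from 35642600 to 35653199 (10600 bp), and in OE-high cells from 35643000 to 35661599 (18600 bp). The left ends lay within 200 bp of the ES domain's, which is the grid on which domain ends fall, and the right ends lay 6800 and 15200 bp farther out. In the RefSeq order of coding genes the next gene on that side is Tcf19. Neither day 4 list had a domain in the window. The nearest of the day 4 list was 111 kb to the left and the nearest of the day 4 knockdown list 245 kb to the left.

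Nanog carried the Fbxl19 peak with the highest first score of the 4 loci. By the second deposited score it had 62, below the 67 of the leading Pou5f1 peak. The peak, at 122657071 to 122658101, had a first score of 25.7, rank 117 of 13669 in the OE-high list, and it overlapped the only OE-low peak of the 4 windows, at 122657318 to 122657644 (score 7.28, above 24.2% of the OE-low list). The 2 clones placed the summit 7 bp apart, at 122657499 and 122657492. The other 3 OE-high peaks scored 12.2, 7.95 and 9.47 and lay at 122652131 to 122653563, 122665879 to 122666394 and 122670006 to 122670399. Rnf20 had 3 peaks, at 122652397 to 122653156 (score 120), 122658332 to 122658982 (98.8) and 122659863 to 122660460 (98.1). Only the first of these overlapped Fbxl19, and no Rnf20 peak overlapped this leading Fbxl19 peak, whose end was 231 bp from the next Rnf20 peak. At least 4 OE-high Fbxl19 peaks occurred in 0.224% of tiles and at least 3 Rnf20 peaks in 0.408%.

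H2Bub1 over Nanog was listed in 4 of the 5 conditions. The domain was 11200 bp in ES cells (122655800 to 122666999), 17400 bp in the knockdown (122657600 to 122674999), 11200 bp in OE-high cells (122654800 to 122665999) and 7400 bp at day 4 (122657600 to 122664999), beside a gene length of 7145 bp. In the day 4 knockdown the window had no domain. By score the Nanog domain stood above 56.9% of the ES list, 10.9% of the knockdown list, 91.7% of the OE-high list and 72.0% of the day 4 list. Scores rank domains within a list and do not give a change between lists. The knockdown domain, with a score of 7.31, was close to the lowest score listed.

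Sox2 had the widest Fbxl19 and Rnf20 coverage and, in the 3 undifferentiated conditions, the longest H2Bub1 domain. The 6 OE-high Fbxl19 peaks covered 29.2% of the window and the 6 Rnf20 peaks 29.9%, against 10.6% to 14.6% and 5.87% to 9.58% at the other 3 loci. At least 6 Rnf20 peaks occurred in 0.0692% of tiles. An Fbxl19 peak of 3038 bp at 34547648 to 34550685 was the 29th longest of its list at a middling score (11.4, above 60.0% of the list), and a further one of 2058 bp followed at 34551345 to 34553402 (score 12.7). Both overlapped an Rnf20 peak of 4480 bp at 34548698 to 34553177, whose score of 3100 is the maximum of the Rnf20 list and is shared by 10 peaks. The other Rnf20 peaks at Sox2 scored 50.6 to 182. The Rnf20 list comes from 1 library, so whether this peak recurs was not tested. Fbxl19 peaks elsewhere in the window scored 7.95 to 14.4, and the nearest OE-low peak lay 98.1 kb to the right.

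The Sox2 gene is short (2467 bp) and lies inside the long noncoding gene Sox2ot in the RefSeq table, whereas the H2Bub1 domain was more than 10 times as long as Sox2 in 3 conditions. It spanned 30000 bp in ES cells (34547000 to 34576999), 28400 bp in the knockdown (34547400 to 34575799) and 34000 bp in OE-high cells (34540400 to 34574399). At day 4 a domain of 5600 bp remained at 34549000 to 34554599, with a score of 7.48 that stood above 9.13% of its list. The day 4 knockdown list had no domain there, and its nearest one lay 594 kb to the left. The short day 4 domain overlapped both long Fbxl19 peaks and the long Rnf20 peak of undifferentiated cells.

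Klf4 had the fewest peaks and, in ES cells, the highest-scoring H2Bub1 domain of the 4 loci. Its 2 OE-high Fbxl19 peaks, at 55543151 to 55544540 (score 10.1) and 55544943 to 55546303 (16.6), were each about 1.4 kb long, and 92.2% of the list was shorter than either. At least 2 such peaks occurred in 2.32% of tiles. Each overlapped an Rnf20 peak, at 55543456 to 55544273 (score 138, above 88.8% of the list) and 55545184 to 55545565 (51.9). The third Rnf20 peak at 55539455 to 55539779 (50.8) had no Fbxl19 peak, and the last 2 scores lie near the list minimum of 50.0. The ES domain at 55537400 to 55545399 covered 8000 bp, beside a gene length of 5339 bp, and had a score of 30.9, rank 48 of 2937. In the knockdown the domain was 20600 bp long (55537000 to 55557599, score 9.54) and in OE-high cells 12200 bp (55538000 to 55550199, score 17.3). The day 4 list had none, its nearest domain lying 125 kb to the left. The day 4 knockdown list had a domain of 2400 bp at 55542400 to 55544799, with a score of 7.63 above 26.1% of that list.

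Fbxl19 and Rnf20 peaks coincided at the 4 loci in most cases, with Nanog apart. Of the 18 OE-high Fbxl19 peaks 12 overlapped Rnf20 (66.7%), against 22.4% of all OE-high peaks, and of the 17 Rnf20 peaks 12 overlapped Fbxl19 (70.6%), against 38.4% of all Rnf20 peaks. By locus the Fbxl19 peaks with Rnf20 were 5 of 6 at Pou5f1, 1 of 4 at Nanog, 4 of 6 at Sox2 and 2 of 2 at Klf4. Peaks of a locus are neighbours from the same libraries and not replicates. The shares over all peaks are not limited to regions with several peaks, and peak width was not matched. With OE-low, 1 of the 18 peaks overlapped, against 12.9% of all OE-high peaks. Streptavidin served for both proteins, and no list from cells with the ligase alone was analysed here.

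**Figure D3:**
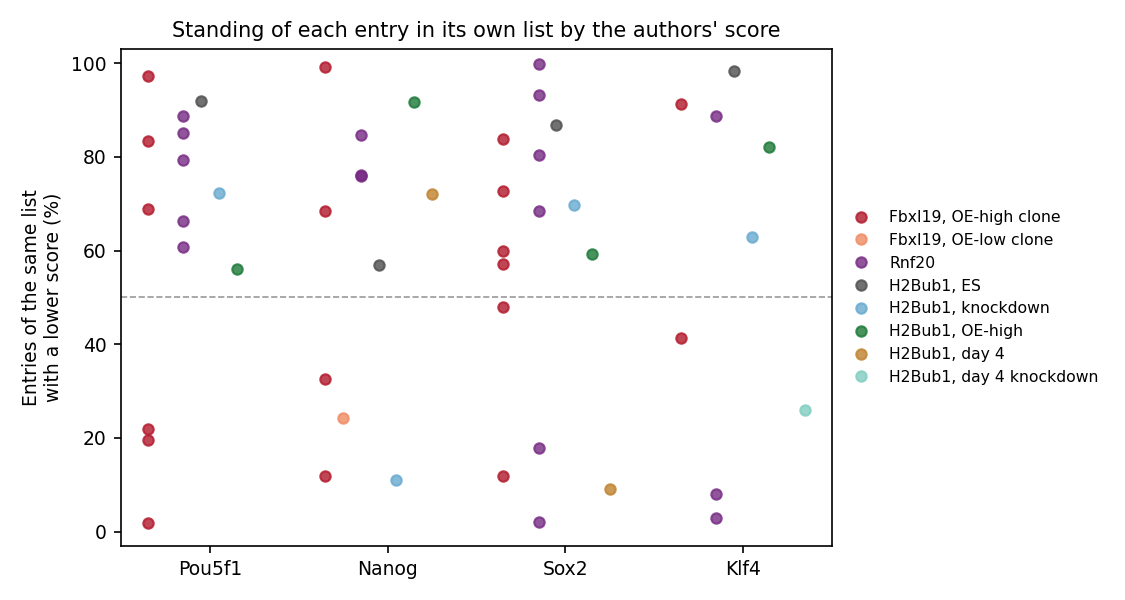
Percent of entries of the same list with a lower score of the authors (y axis) for every peak or domain (points) at the 4 loci (x axis), coloured by list, with a dashed line at 50%. Each locus except Sox2 has an OE-high Fbxl19 peak above at least 91.4% of its list, and the ES domains lie between 56.9% (Nanog) and 98.4% (Klf4).

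In ES cells with Fbxl19 knocked down, H2Bub1 had a domain at all 4 loci. In the top 50% of the knockdown list by score, or its 1090 top-scoring domains, this held at 3 of 4, without Nanog. The Fbxl19 level left in these cells was not examined here, and the need for Fbxl19 was not tested. In the whole ES list 52.2% of domains overlapped a knockdown domain and 47.8% did not. These shares cover ES domains of every score and were not matched to the scores at the 4 loci. The knockdown domain was 2.94 times as long as the ES domain at Pou5f1, 2.58 times at Klf4, 1.55 times at Nanog and 0.947 times at Sox2. Thus 3 of 4 were at least 1.5 times as long, against 21.9% of the 1532 ES domains with an overlapping knockdown domain. The median ratio of those 1532 was 1.03, and they were not matched for ES length. Of the ES list 25.5% was shorter than the Pou5f1 domain, 51.4% than that of Klf4, 61.0% than that of Nanog and 82.6% than that of Sox2. The share of the window in a domain went from 14.4% to 42.4% at Pou5f1, from 40.0% to 62.1% at Nanog, from 62.5% to 60.8% at Sox2 and from 30.8% to 73.1% at Klf4. By score the 4 domains stood above 91.9% (Pou5f1), 56.9% (Nanog), 86.8% (Sox2) and 98.4% (Klf4) of the ES list and above 72.3%, 10.9%, 69.7% and 62.8% of the knockdown list, standings in lists of different size that do not show a change. No source used here gives the formula of the score, and the track lines carry 60M for ES cells and 46M for the knockdown without saying what is counted. How far these totals bear on domain length was not tested.

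**Figure D4:**
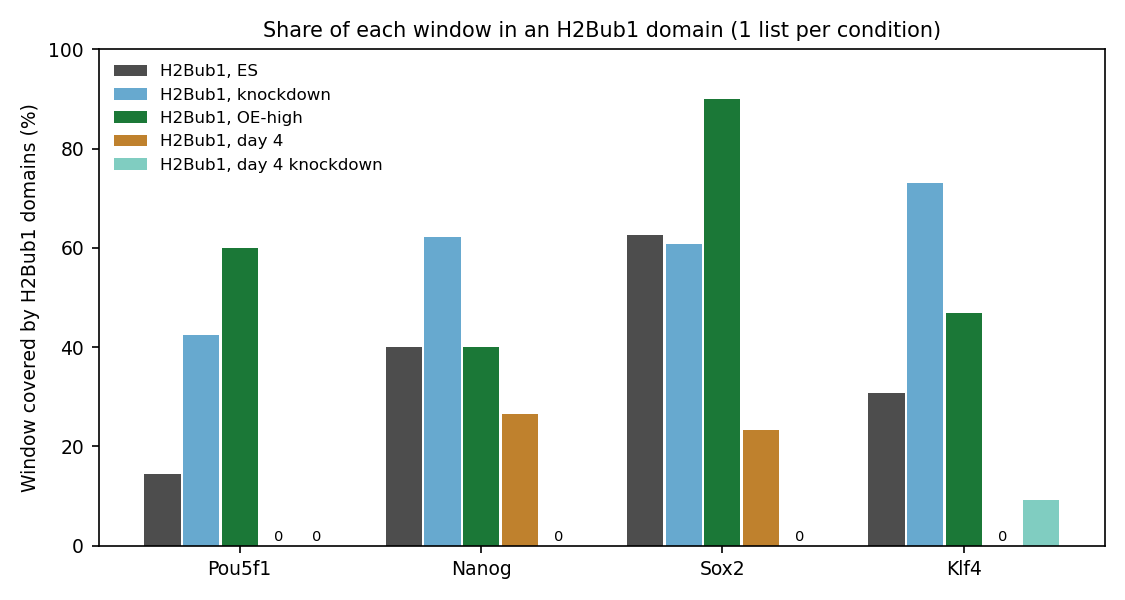
Percent of each window inside an H2Bub1 domain (y axis, bars) in the 5 conditions, with 1 list per condition and hence no error bars, and 0 where no domain was listed. Coverage in the knockdown exceeds that in ES cells at Pou5f1, Nanog and Klf4, and the day 4 bars are at most 26.4%.

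In OE-high cells the 4 loci also kept their domains, as did 89.5% of all ES domains. The domain was 5.17 times as long as in ES cells at Pou5f1 and 1.53 times at Klf4, but 1.00 times at Nanog and 1.13 times at Sox2. Across the list 62.2% of overlapping ES domains had at least 1.5 times the length in OE-high cells. The median ratio was 2.22, so 3 of the 4 loci lay below it, without matching for ES length. A long OE-high domain over several ES domains counts at full length for each of them. At Nanog the domain had the same length and lay 1000 bp farther left at either end. At Sox2 the left end lay 6600 bp farther out and the right end 2600 bp farther in. The OE-high list held 7216 domains over 246 Mb, against 2937 domains over 57.4 Mb in ES cells. Its track line carries 46M, against 60M for ES cells, without saying what is counted. How far these totals bear on domain length was not tested. With the H2Bub1 lists limited to their 1090 top-scoring domains, OE-high kept a domain at 1 of 4 loci, that of Nanog, and ES cells at 3 of 4.

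At day 4 of differentiation Pou5f1 and Klf4 had no domain, and those of Nanog and Sox2 were shorter than in ES cells. In the whole ES list 25.1% of domains had no day 4 counterpart, in a day 4 list of 5125 domains against 2937. The Nanog domain was 0.661 times and the Sox2 domain 0.187 times as long as in ES cells. The median ratio of all 2199 overlapping ES domains was 1.72, and 74.4% of them were longer at day 4. Neither value was matched for ES length, and a day 4 domain over several ES domains counts at full length for each. At Sox2 the difference lay mainly on the right, where the end was 22400 bp farther in, with the left end 2000 bp farther in. In cell populations such as these, loss of the mark in every cell, loss in some cells and signal below the calling threshold cannot be told apart. The track lines carry 36M for the day 4 list and 41M for the day 4 knockdown list, against 60M for ES cells, without saying what is counted. How far these totals bear on the absence of a domain was not tested. Among the top 50% of the day 4 list by score the Nanog domain alone was left, and among its 1090 top-scoring domains there was none at these loci.

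In differentiated cells with Fbxl19 knocked down a domain was listed at Klf4 alone, where the day 4 list had none. This was 1 of 4 loci, against 28.0% of all ES domains with a counterpart in this list. The Nanog and Sox2 domains of the day 4 list had no counterpart, as was the case for 81.1% of all day 4 domains. The Klf4 domain of 2400 bp lay inside the ES domain, 0.300 times its length, and overlapped Fbxl19 and Rnf20 peaks at 55543151 to 55544540 and 55543456 to 55544273. Its listing pattern, present in ES, knockdown, OE-high and day 4 knockdown and missing at day 4, was shared by 22 of the 2937 ES domains (0.749%). The pattern of Pou5f1, missing in both day 4 lists, held for 4.87% of ES domains, and that of Nanog and Sox2, missing in the day 4 knockdown only, for 23.8%. A further 20.3% of ES domains were in all 4 other lists, as none of the 4 loci were. The score of the Klf4 domain, 7.63, lies near the lowest score listed, and no domain was left among the top 50% of the day 4 knockdown list.

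Most H2Bub1 domains at these loci had 1 end near an OE-high Fbxl19 summit. Of the 30 ends of the 15 domains, 15 lay within 1 kb of a summit. By domain this was 13 of 15, against 48.4% to 69.7% of domains over the 5 lists (50.6% in ES cells). That background is not limited to regions with several Fbxl19 peaks, and the 15 domains repeat the same 4 loci. The ES and OE-high domains of Nanog and the OE-high domain of Sox2 counted only through low-scoring peaks (7.95, above 11.9% of the list). The summit at the right end of the Pou5f1 ES domain belongs to a peak above 1.83% of the list. The count was not repeated without low-scoring peaks. In ES cells the distance was 128 bp at the left and 24 bp at the right end of the Pou5f1 domain and 1699 and 863 bp at those of the Nanog domain. It was 169 and 9421 bp at the left and right end of the Sox2 domain and 6006 and 8 bp at those of the Klf4 domain. Klf4 is read from the minus strand, so its right end faces upstream, as the left ends of Pou5f1 and Sox2 do. Downstream ends also lay within 1 kb of a summit at Pou5f1 in ES cells (24 bp) and the knockdown (807 bp). The same held at Nanog in ES cells (863 bp) and OE-high cells (137 bp). The other downstream ends were 1006 to 9421 bp away. All summits are those of OE-high ES cells, also where the domain is from knockdown or day 4 cells. At Nanog the knockdown and day 4 domains began 101 bp from the summit at 122657499. The ES and OE-high domains of Nanog began farther from a summit, with the nearest 1699 and 1751 bp away. The day 4 domain of Sox2 began 58 bp from the summit at 34548942. The exceptions were the knockdown and OE-high domains of Klf4, which ran 12192 and 4792 bp beyond the last summit on the right.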

How the data were processed

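Chromatin was profiled in 21 samples, of which 17 in 8 groups had a list that was used here. Groups came from the sample titles. Tools given in the submitters' processing notes are MACS and BWA 0.5.9-r16, on mm9, without saying which made a list. BCP, a caller of broad domains, stands in the track line of the 5 H2Bub1 lists, per the file headers, and the deposited score there exceeds 7. A further deposited column gives the length in bp. The Fbxl19 lists have 2 deposited scores of the authors and the Rnf20 list has 1, from 50 to 3100, with no formula in the sources used here. Names give 7 lists as combined, and the labels do not tie the third OE-high H2Bub1 sample to a list. For Fbxl19 in OE-high the label points to an H2Bub1 list, so this list was assigned from its name and the sample titles alone. Depth per sample is unknown and replicates were not analysed here, so no p-value was computed. Scores rank entries within a list.

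Printed positions count from 1. Fbxl19 positions were taken as deposited, and starts in the other lists, which count from 0, were raised by 1. Windows, tiles and lists were joined by an overlap of at least 1 bp, and tiles began at base 1 of each chromosome and ended at its last listed entry. Length ratios divide the summed full length of overlapping domains by that of the ES domain, so a domain over several ES domains enters each ratio whole. Shares and medians over all domains of a list were not matched for score or length. Named entries are all those in the 4 windows and, where there was none, the nearest outside. Members and comparisons were chosen with earlier results of these data known. An intended list of other pluripotency genes was not placed, for want of an mm9 annotation. Alternatives changed overlap, list threshold, list size and window. Python 3.11.15, NumPy 2.4.6 and matplotlib 3.10.9 were used, and overlaps were tested on simulated data.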

Additional observations from a re-analysis of the deposited data

How the results depend on the processing

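With 50% of the shorter of entry and window to be covered, no count of loci or of entries per window changed. Windows narrowed by 5 kb on each side lowered 4 of the 32 counts of entries, each by no more than 1.5 times, and windows widened by 10 kb raised 7, of which 4 by more than 1.5 times. Neither changed a count of loci. With the top 50% of every list by score, loci with an entry fell to 0 for OE-low Fbxl19, 3 for the knockdown, 1 for the day 4 list and 0 for the day 4 knockdown, and loci with a domain in both the ES and day 4 lists fell to 1. With lists of the same size (1090 domains or 2213 peaks), loci with a domain fell to 3 in ES and in knockdown cells, to 1 in OE-high and to 0 at day 4, and those shared with ES cells were 0 for OE-high and for day 4. These settings hold fewer entries by construction, and 10 and 14 of the 32 counts of entries were lower. No paired analysis was possible because the lists combine replicates, and leaving out replicates was not run for the same reason.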

Other observations

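The surroundings of the windows differed between the loci. Just right of the Nanog window, 1.2 to 2.4 kb beyond its edge, a further H2Bub1 domain began in 4 lists. It ran from 122677000 to 122692599 in ES cells and from 122677400 to 122692599 at day 4, where its score of 13.6 was above that of the Nanog domain in the same list (12.5). In OE-high cells it reached 122785799, a length of 108400 bp. The day 4 knockdown list, with no domain in the Nanog window, had 2800 bp of it at 122689800 to 122692599. The next coding gene after Nanog in the RefSeq table is Slc2a3, a glucose transporter gene, but the domain was not placed on a gene here.

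Other windows had close peaks and distant domains. An OE-high Fbxl19 peak at 34562881 to 34563851 (score 11.1) lay 0.881 kb right of the Sox2 window and inside the ES domain, and one at 55527535 to 55528186 (score 12.5) lay 1.81 kb left of the Klf4 window and outside every domain of Klf4. The next ES domain was 231 kb away at Pou5f1, 557 kb at Sox2 and 133 kb at Klf4. At Klf4 the neighbouring domain, 55362800 to 55396999 in ES cells, was listed in all 5 conditions, including day 4 (55363000 to 55404999, score 18.6), where Klf4 had none.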
